A study of Mus musculus with 6 samples.

Results

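Expression of 50 genes of mitosis and the kinetochore was compared in gonadal white adipose tissue (GWAT) between *ob/ob* mice and *ob/ob/Fsp27*-/- mice. The genes were listed by name for their known part in cell division, with earlier results of these data known. Each was read through its highest-mean probeset that carries 1 gene symbol. Of the 50, 49 had such a probeset among the 19937 genes measured in this way, and *Ccnb1* was not analysed here. *Top2a* had 2 such probesets, and both are described. All mice were males aged 4 months on a chow diet, and both genotypes lack leptin, so the *ob/ob* animals are obese mice and not lean controls. The *ob/ob/Fsp27*-/- animals carry in addition a deletion of *Fsp27*, also named *Cidec*, a lipid droplet protein of adipocytes, in every cell of the body. There were 6 GeneChip Mouse Gene 1.0 ST arrays, 3 for each genotype, and by the methods each array held RNA pooled from 3 mice, which the labels do not mention. The comparison asks how gene expression differs with the loss of Fsp27 in the gonadal fat of mice that lack leptin. By the paper, body weight and gonadal fat mass were lower in *ob/ob/Fsp27*-/- mice, so the depots compared also differed in mass.

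In mitosis, cyclin-dependent kinase 1 bound to its cyclins drives the cell into division, chromosomes condense, and microtubules of the spindle attach to the kinetochore, a protein assembly built on centromeric chromatin. The spindle assembly checkpoint holds the cell until every kinetochore is attached, after which the anaphase-promoting complex marks securin and cyclin B for destruction and the cell divides at the central spindle. Most of these genes are transcribed late in the cell cycle and are low in resting cells, and in obese adipose tissue macrophages are among the cells known to divide locally.

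Promoter sequence is shown here because many genes of mitosis share promoter elements, namely CCAAT boxes bound by NF-Y and the cell cycle genes homology region (CHR) near the start site. The windows shown are of the 3 genes with the largest decreases among those that held both motifs. *Ccna2*, whose decrease was larger, had no RefSeq window to search. Each window spans the 170 bases before and 30 bases after the RefSeq start (GRCm38.p6). The windows lie on the minus strand at chr11:99024160-99024359 for *Top2a*, chr9:70421525-70421724 for *Ccnb2* and chr7:135716350-135716549 for *Mki67*. Sequences run 5′ to 3′ in the direction of transcription, and capitals mark CCAAT or its complement ATTGG, and TTTGAA or its complement TTCAAA.
Top2a: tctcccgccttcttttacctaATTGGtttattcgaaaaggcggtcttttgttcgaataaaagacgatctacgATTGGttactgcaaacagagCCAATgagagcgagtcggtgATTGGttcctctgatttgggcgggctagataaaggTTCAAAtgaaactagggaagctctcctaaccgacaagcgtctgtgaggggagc
Ccnb2: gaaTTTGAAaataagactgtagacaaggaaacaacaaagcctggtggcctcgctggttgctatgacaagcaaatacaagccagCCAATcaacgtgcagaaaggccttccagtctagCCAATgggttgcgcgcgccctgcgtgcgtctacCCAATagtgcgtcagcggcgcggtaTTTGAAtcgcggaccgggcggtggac
Mki67: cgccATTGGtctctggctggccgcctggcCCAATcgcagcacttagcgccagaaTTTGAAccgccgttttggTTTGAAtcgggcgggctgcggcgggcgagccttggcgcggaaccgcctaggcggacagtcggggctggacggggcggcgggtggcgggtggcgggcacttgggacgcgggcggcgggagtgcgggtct
The stretch shown held 4 CCAAT matches and 1 TTTGAA match for *Top2a*, 3 and 2 for *Ccnb2*, and 2 and 2 for *Mki67*. In *Ccnb2* all 3 CCAAT matches run in the direction of the gene, whereas in *Top2a* 3 of the 4 run against it.

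Most of the mitosis genes had lower expression in the fat of *ob/ob/Fsp27*-/- mice. In all, 42 of 49 were called lower (a log2 fold change of -0.5 or less, with an adjusted p under 0.05 in limma), and 0 were called higher, with 0 higher and 45 lower at an unadjusted p under 0.05. Of all 19937 genes, 10.8% were called lower and 9.58% higher. The median log2 fold change of the 49 genes was -1.19, a 2.29-fold decrease, beside 0.058 over all genes. At least 2-fold decreases (a log2 fold change of -1 or less) were called for 30 of the 49, beside 4.79% of all genes. In 45 of the 49 all 3 *ob/ob/Fsp27*-/- arrays lay below all 3 *ob/ob* arrays, which held for 20.7% of all genes. Whole tissue was measured, so fewer cells of a type and less RNA per cell cannot be told apart. The 42 adjusted p values ran from 1.94e-05 to 0.00611.

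**Figure D1:**
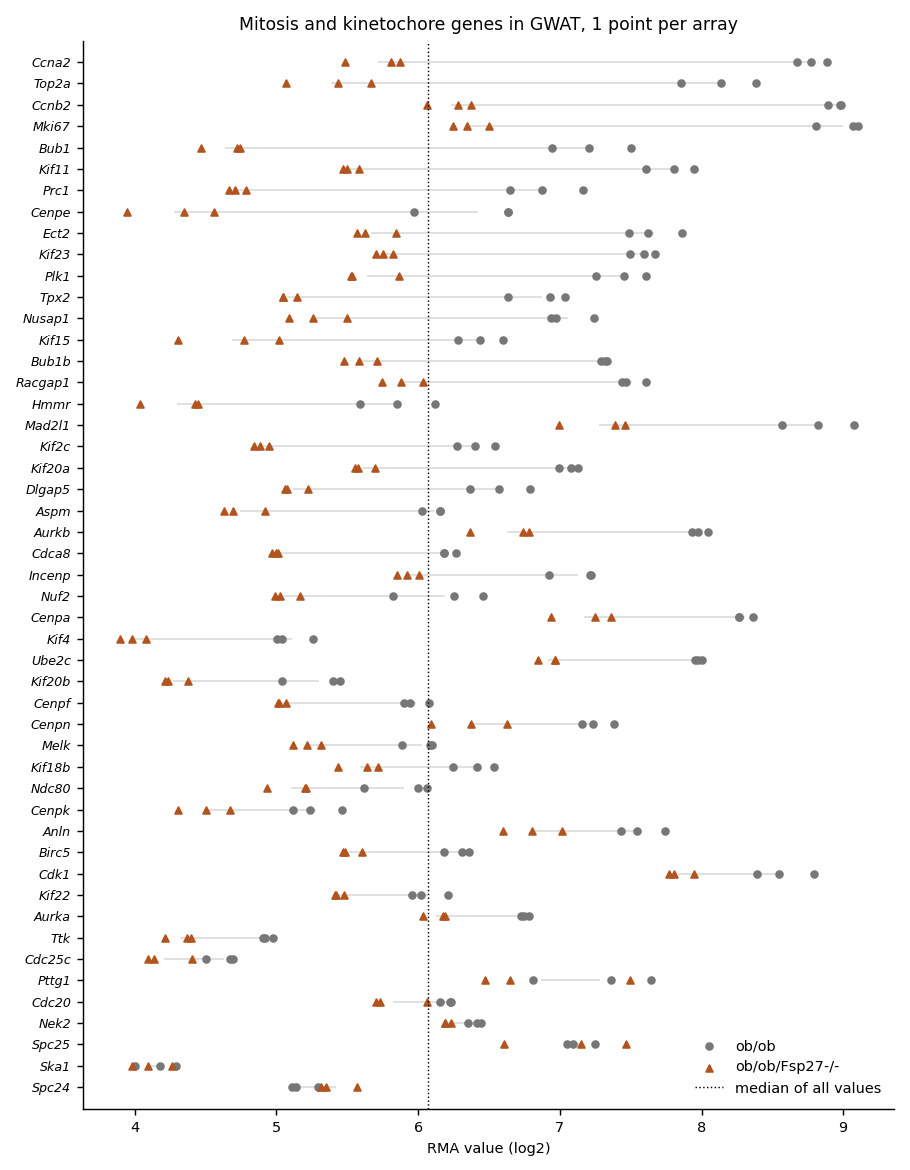
Log2 expression of the 49 measured genes (rows, ordered by change) on each of the 6 arrays, with points coloured by genotype and a dotted line at the median of all values (6.07). In 45 rows the 3 *ob/ob/Fsp27*-/- points all lie to the left of the 3 *ob/ob* points, and *Pttg1*, *Spc25* and *Ska1* overlap.

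Values below are log2 expression on arrays 1, 2 and 3 of each genotype, and changes are log2 differences, *ob/ob/Fsp27*-/- minus *ob/ob*, with the standard error (SE) and the limma p adjusted over all tested probesets. By role, the median change was largest for genes of the chromosomes (-2.68) and smallest for those of anaphase onset (-0.40). The plot of changes by role gives every gene with its interval.

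**Figure D2:**
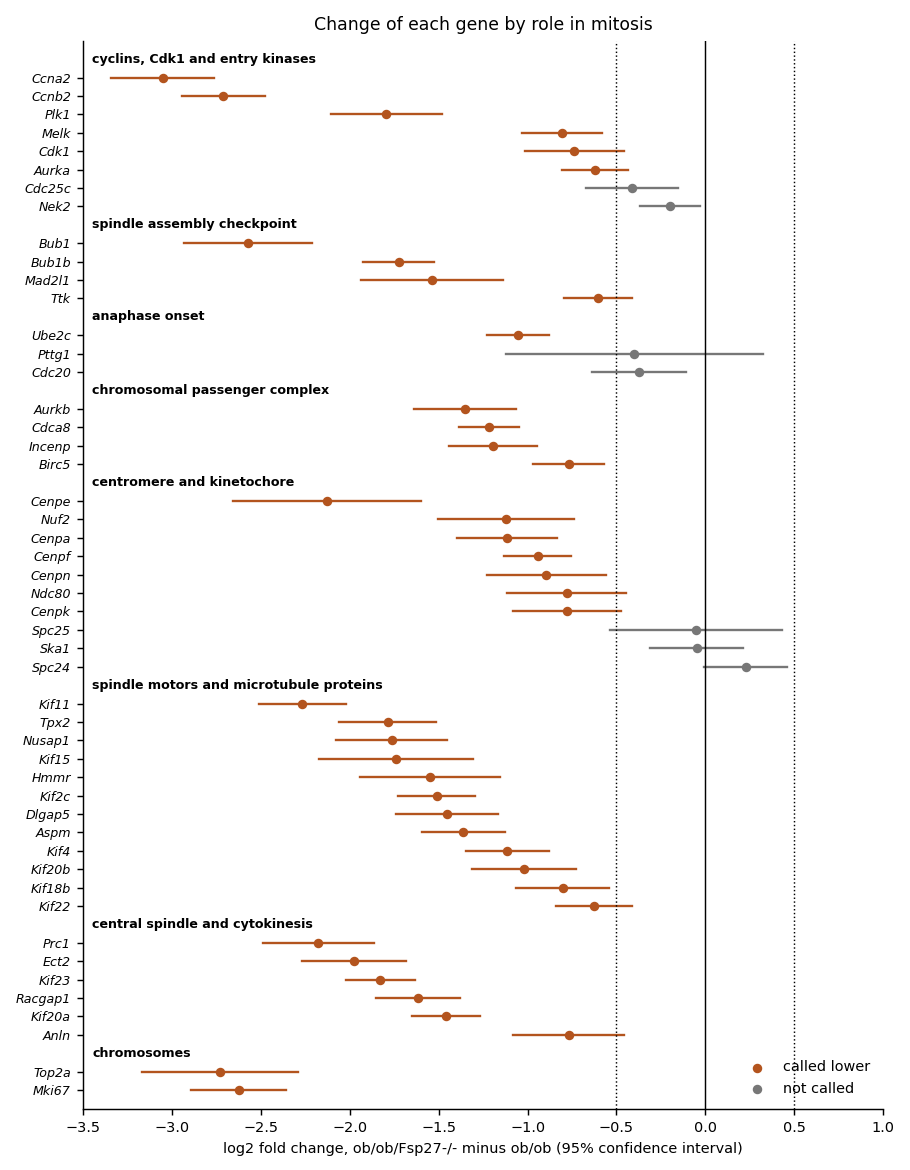
Log2 fold change of each of the 49 genes (*ob/ob/Fsp27*-/- minus *ob/ob*) with its 95% confidence interval, grouped by role, and dotted lines at the fold threshold of 0.5. Called genes reach from -0.61 (*Ttk*) to -3.05 (*Ccna2*), and the 7 genes that were not called lie between -0.41 and 0.23.

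Among the cyclins, Cdk1 and the kinases of mitotic entry, 6 of 8 measured genes were called lower, with a median of -0.77. *Ccna2*, which encodes cyclin A2 of S phase and early mitosis, read 8.77, 8.88 and 8.67 on the *ob/ob* arrays and 5.87, 5.48 and 5.81 on the *ob/ob/Fsp27*-/- arrays, and fell by 3.05 (SE 0.12, adjusted p = 2.53e-05). This 8.31-fold decrease was the largest among the 49 genes. *Ccnb2*, a mitotic cyclin that partners Cdk1, read 8.89, 8.98 and 8.98 against 6.37, 6.06 and 6.28 and fell by 2.71 (SE 0.099, adjusted p = 1.94e-05). *Plk1*, a kinase of centrosome maturation and mitotic progression, read 7.45, 7.60 and 7.25 against 5.53, 5.53 and 5.87 and fell by 1.79 (SE 0.13, adjusted p = 0.000159). For these 3 genes the gap between genotypes was several times the range within either genotype. *Melk*, a kinase of dividing cells, read 5.88, 6.08 and 6.10 against 5.21, 5.31 and 5.11 and fell by 0.81 (SE 0.096, adjusted p = 0.00102). *Cdk1*, the kinase that drives entry into mitosis, read 8.54, 8.80 and 8.39 against 7.80, 7.77 and 7.95 and fell by 0.74 (SE 0.12, adjusted p = 0.00367). *Aurka*, the spindle pole kinase Aurora A, read 6.74, 6.73 and 6.78 against 6.03, 6.17 and 6.19 and fell by 0.62 (SE 0.078, adjusted p = 0.00133). *Cdk1* and *Aurka* thus did not reach a 2-fold decrease, and *Cdk1* stayed above the median of all values (6.07) on every array of both genotypes. The other two were not called. *Cdc25c*, a phosphatase that activates Cdk1, read 4.69, 4.68 and 4.50 against 4.09, 4.40 and 4.14, a change of -0.41 with an adjusted p of 0.0281 that passed on p and not on size. *Nek2*, a centrosome kinase, read 6.42, 6.44 and 6.35 against 6.19, 6.23 and 6.19, which did not overlap but differed by -0.20 (95% interval -0.37 to -0.028, adjusted p = 0.0821).

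All 4 genes of the spindle assembly checkpoint were called lower, with a median of -1.63. *Bub1*, a checkpoint kinase of the kinetochore, read 7.21, 7.50 and 6.95 on the *ob/ob* arrays and 4.72, 4.47 and 4.74 on the *ob/ob/Fsp27*-/- arrays, and fell by 2.57 (SE 0.15, adjusted p = 7.78e-05). *Bub1b*, which encodes the checkpoint protein BubR1, read 7.32, 7.33 and 7.29 against 5.71, 5.48 and 5.58 and fell by 1.73 (SE 0.085, adjusted p = 3.86e-05). *Mad2l1*, which encodes the Mad2 protein that inhibits the anaphase-promoting complex, read 8.82, 9.07 and 8.57 against 7.39, 6.99 and 7.46 and fell by 1.54 (SE 0.17, adjusted p = 0.00073). The lowest *ob/ob* array of *Mad2l1* lay more than 1 above its highest *ob/ob/Fsp27*-/- array on the log2 scale. *Ttk*, the kinase Mps1 that starts the checkpoint signal, read 4.98, 4.90 and 4.92 against 4.22, 4.37 and 4.39 and fell by 0.61 (SE 0.082, adjusted p = 0.00175). *Ttk* lay below the median of all values on all 6 arrays, and its decrease was the smallest of those called.

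Of the 3 genes of anaphase onset, 1 was called lower. *Ube2c*, the ubiquitin-conjugating enzyme of the anaphase-promoting complex, read 7.98, 7.96 and 8.0 on the *ob/ob* arrays against 6.96, 6.85 and 6.96 on the others and fell by 1.05 (SE 0.075, adjusted p = 0.000142). *Cdc20*, the activator that brings substrates to that complex, read 6.16, 6.23 and 6.22 against 5.73, 6.06 and 5.70, a change of -0.37 (SE 0.11, adjusted p = 0.0442) that was below the fold threshold. *Pttg1*, which encodes securin, read 6.81, 7.36 and 7.64 against 6.65, 7.50 and 6.47, and its change of -0.40 was within the spread of the arrays (95% interval -1.12 to 0.32, adjusted p = 0.386). The SD of *Pttg1*, 0.42 over the *ob/ob* arrays and 0.55 over the *ob/ob/Fsp27*-/- arrays, was the widest in both genotypes among the 49 genes, whose median SD was 0.14 in each.

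The chromosomal passenger complex holds Aurora B at the centromere and later at the central spindle, and all 4 of its genes were called lower. *Aurkb*, the kinase Aurora B, read 7.93, 7.97 and 8.05 against 6.74, 6.78 and 6.37 and fell by 1.35 (SE 0.12, adjusted p = 0.000339). *Cdca8*, which encodes borealin, read 6.26, 6.18 and 6.18 against 5.01, 5.0 and 4.97 and fell by 1.22 (SE 0.072, adjusted p = 7.66e-05). *Incenp*, the scaffold of the complex, read 7.21, 7.22 and 6.93 against 5.92, 6.0 and 5.85 and fell by 1.19 (SE 0.10, adjusted p = 0.000305). These 3 changes lay between -1.35 and -1.19, and their 95% intervals overlap. *Birc5*, which encodes survivin, read 6.18, 6.31 and 6.36 against 5.47, 5.60 and 5.48 and fell by 0.77 (SE 0.085, adjusted p = 0.000746), the smallest change of the 4.

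Of the 10 measured genes of the centromere and kinetochore, 7 were called lower. *Cenpe*, a kinetochore motor that moves chromosomes to the spindle equator, read 6.64, 6.64 and 5.97 on the *ob/ob* arrays and 4.35, 3.95 and 4.56 on the *ob/ob/Fsp27*-/- arrays, and fell by 2.13 (SE 0.22, adjusted p = 0.000614). *Cenpa*, the histone H3 variant that marks the centromere, read 8.26, 8.27 and 8.36 against 6.94, 7.36 and 7.25 and fell by 1.12 (SE 0.12, adjusted p = 0.000656). *Cenpf*, a large protein of the outer kinetochore, read 6.08, 5.95 and 5.90 against 5.07, 5.02 and 5.01 and fell by 0.94 (SE 0.08, adjusted p = 0.000269). *Cenpa* lay above the median of all values on every array, while *Cenpe* and *Cenpf* lay below it on all *ob/ob/Fsp27*-/- arrays. *Cenpn*, which binds the centromeric nucleosome, read 7.23, 7.38 and 7.16 against 6.09, 6.37 and 6.62 and fell by 0.89 (SE 0.14, adjusted p = 0.00356). *Cenpk*, of the inner kinetochore network, read 5.46, 5.23 and 5.12 against 4.50, 4.31 and 4.67 and fell by 0.78 (SE 0.13, adjusted p = 0.00418).

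The Ndc80 complex, which binds microtubules at the kinetochore, was split. Its subunits *Ndc80* and *Nuf2* were called lower and *Spc24* and *Spc25* were not. *Ndc80* read 6.06, 6.0 and 5.62 on the *ob/ob* arrays against 5.21, 4.93 and 5.20 on the *ob/ob/Fsp27*-/- arrays and fell by 0.78 (SE 0.14, adjusted p = 0.00611). *Nuf2* read 6.26, 6.46 and 5.82 against 4.99, 5.02 and 5.17 and fell by 1.12 (SE 0.16, adjusted p = 0.00234). Both were lowest on *ob/ob* array 3 within that genotype. *Spc25* read 7.09, 7.25 and 7.05 against 6.61, 7.15 and 7.47, so that the genotypes overlapped, with a change of -0.052 (95% interval -0.54 to 0.43, adjusted p = 0.878). *Spc24* read 5.14, 5.11 and 5.30 against 5.35, 5.57 and 5.31 and was the single gene of the list whose *ob/ob/Fsp27*-/- arrays all lay above the *ob/ob* arrays, with a change of 0.23 (95% interval -0.0072 to 0.46, adjusted p = 0.138) that was not called. *Ska1*, whose complex helps the kinetochore follow the microtubule end, read 4.29, 4.18 and 4.0 against 4.26, 4.09 and 3.98, a change of -0.047 (95% interval -0.31 to 0.21, adjusted p = 0.791). *Ska1* and *Spc24* were dim on all 6 arrays, below the median of all values. The interval of *Ndc80*, -1.11 to -0.45, overlaps that of *Spc25* and not that of *Spc24*. The interval of *Nuf2*, -1.50 to -0.74, overlaps neither. The difference between the subunits was not tested.

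All 12 genes of spindle motors and microtubule proteins were called lower, with a median of -1.48, and all 12 had a mean below the median of all values in *ob/ob/Fsp27*-/-, while 4 did in *ob/ob*. *Kif11*, the motor Eg5 that pushes the spindle poles apart, read 7.80, 7.95 and 7.60 on the *ob/ob* arrays and 5.50, 5.59 and 5.47 on the *ob/ob/Fsp27*-/- arrays, and fell by 2.27 (SE 0.10, adjusted p = 3.19e-05). *Tpx2*, which activates Aurora A on the spindle, read 7.04, 6.93 and 6.63 against 5.05, 5.05 and 5.14 and fell by 1.79 (SE 0.12, adjusted p = 0.000107). *Nusap1*, which bundles spindle microtubules, read 6.94, 7.24 and 6.97 against 5.09, 5.50 and 5.26 and fell by 1.77 (SE 0.13, adjusted p = 0.000173). These 3 genes had at least 3.40-fold lower expression. *Kif15*, a motor that works beside Eg5, read 6.43, 6.60 and 6.28 against 4.77, 4.30 and 5.01 and fell by 1.74 (SE 0.18, adjusted p = 0.000614). *Hmmr*, a hyaluronan receptor that is also a spindle protein, read 5.85, 6.12 and 5.59 against 4.04, 4.42 and 4.45 and fell by 1.55 (SE 0.17, adjusted p = 0.000657). *Kif2c*, the kinetochore motor MCAK that takes microtubules apart, read 6.27, 6.54 and 6.40 against 4.95, 4.89 and 4.84 and fell by 1.51 (SE 0.093, adjusted p = 8.56e-05). The *ob/ob/Fsp27*-/- arrays of *Kif15* were the most spread of these 6 genes, with array 2 the lowest.

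*Dlgap5*, which stabilizes kinetochore fibres, read 6.57, 6.79 and 6.36 on the *ob/ob* arrays and 5.07, 5.06 and 5.23 on the *ob/ob/Fsp27*-/- arrays, and fell by 1.45 (SE 0.12, adjusted p = 0.000253). *Aspm*, a spindle pole protein, read 6.03, 6.15 and 6.15 against 4.63, 4.70 and 4.92 and fell by 1.36 (SE 0.099, adjusted p = 0.000154). *Kif4*, a chromokinesin that carries Prc1 to the central spindle, read 5.26, 5.04 and 5.01 against 3.90, 3.98 and 4.08 and fell by 1.11 (SE 0.098, adjusted p = 0.000311). *Kif4* was dim in both genotypes, with every *ob/ob* array below the median of all values. *Kif20b*, a motor of late mitosis, read 5.40, 5.45 and 5.04 against 4.24, 4.38 and 4.22 and fell by 1.02 (SE 0.12, adjusted p = 0.00115). *Kif18b*, which shortens astral microtubules, read 6.25, 6.41 and 6.53 against 5.64, 5.72 and 5.43 and fell by 0.80 (SE 0.11, adjusted p = 0.00199). *Kif22*, the chromokinesin Kid, read 6.02, 6.21 and 5.96 against 5.42, 5.41 and 5.48 and fell by 0.63 (SE 0.09, adjusted p = 0.00234). The genotypes did not overlap for any of the 12.

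All 6 genes of the central spindle and cytokinesis were called lower, with a median of -1.72. *Prc1*, which bundles the antiparallel microtubules of the central spindle, read 6.88, 7.16 and 6.65 on the *ob/ob* arrays and 4.71, 4.78 and 4.67 on the *ob/ob/Fsp27*-/- arrays, and fell by 2.18 (SE 0.13, adjusted p = 8.53e-05). *Ect2*, the exchange factor that activates RhoA at the division plane, read 7.62, 7.86 and 7.49 against 5.62, 5.57 and 5.84 and fell by 1.98 (SE 0.12, adjusted p = 9.22e-05). *Kif23* and *Racgap1* form the centralspindlin complex. *Kif23* read 7.60, 7.67 and 7.49 against 5.70, 5.82 and 5.75 and fell by 1.83 (SE 0.082, adjusted p = 3.19e-05). *Racgap1* read 7.44, 7.60 and 7.47 against 5.74, 5.88 and 6.04 and fell by 1.62 (SE 0.10, adjusted p = 9.12e-05). Both partners thus fell more than 3-fold, and their 95% intervals overlap. *Kif20a*, a motor that brings the passenger complex to the central spindle, read 7.08, 7.13 and 6.99 against 5.56, 5.57 and 5.69 and fell by 1.46 (SE 0.081, adjusted p = 5.96e-05). *Anln*, which encodes anillin of the contractile ring, read 7.43, 7.74 and 7.55 against 6.60, 6.81 and 7.02 and fell by 0.77 (SE 0.13, adjusted p = 0.00486). *Anln* had the smallest change of the 6 and lay above the median of all values on every array.

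The 2 genes of the chromosomes had some of the largest changes. *Mki67*, which encodes the proliferation antigen Ki-67 that coats mitotic chromosomes, read 9.10, 9.07 and 8.80 on the *ob/ob* arrays and 6.50, 6.35 and 6.25 on the *ob/ob/Fsp27*-/- arrays, and fell by 2.63 (SE 0.11, adjusted p = 2.87e-05). *Top2a*, which encodes the topoisomerase that untangles sister DNA, read 8.14, 8.38 and 7.85 against 5.67, 5.07 and 5.44 on its brighter probeset and fell by 2.73 (SE 0.19, adjusted p = 0.000124). Its dimmer probeset read 3.29, 3.17 and 3.20 against 3.34, 3.11 and 3.35, a change of 0.048 (95% interval -0.18 to 0.27, adjusted p = 0.747), so the probesets disagree. The dimmer one lay close to the lowest value in the table, 2.39, on all 6 arrays. Over the whole list, another 2 probesets name a listed gene together with other symbols and were not used.

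Within a genotype the arrays kept an order across many of the genes. Among the *ob/ob* arrays, array 2 was the highest for 29 of 49 genes (59.2%, beside 22.8% of all genes) and array 3 the lowest for 32 (65.3%, beside 30.2%). Among the *ob/ob/Fsp27*-/- arrays, array 3 was the highest for 22 of 49 (44.9%, beside 28.2%). The mean of the 49 genes was 6.81, 6.91 and 6.72 on the *ob/ob* arrays and 5.50, 5.52 and 5.57 on the *ob/ob/Fsp27*-/- arrays, so the difference between genotypes was larger than that between arrays of either. The low level in *ob/ob/Fsp27*-/- limits how far a decrease can be read, since 36 of 49 genes had a mean below the median of all values there and 12 had one in *ob/ob*. Of all 19937 genes, 8598 had such a mean in *ob/ob/Fsp27*-/- and 8712 in *ob/ob*. With any 1 array left out, all 42 called genes stayed past both thresholds, with an adjusted p of at most 0.0291 in limma, and the number called was 42 or 43. With arrays centred on housekeeping genes, *Kif22* (-0.49), *Aurka* (-0.48) and *Ttk* (-0.47) fell short of the fold threshold and 39 genes were called.

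Other genes of mitosis, taken from lists of complexes, were counted in the same fit. These lists too were chosen with earlier results of these data known, so their counts are a description. Of 108 measured, 51 were called lower and 2 higher, with a median of -0.48. Of 35 other kinetochore and centromere genes, 18 were lower and 1 was higher. *Knl1*, the kinetochore scaffold to which Bub1 binds, changed by -2.28 from 6.74 ± 0.22 in *ob/ob* (mean ± SD, n = 3) with an adjusted p of 6.29e-05 in limma. *Cenpq*, *Cenpi* and *Ska3* were lower by 2.72-fold, 2.31-fold and 2.14-fold. *Zwint*, which encodes a partner of Knl1, went the other way and was 1.75-fold higher (adjusted p = 0.0033), with 9.51, 9.67 and 9.98 on the *ob/ob* arrays and 10.47, 10.58 and 10.54 on the *ob/ob/Fsp27*-/- arrays. Its direction differed from that of *Knl1* and of every called gene among the 49.

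Of 36 other genes of the spindle, centrosome and cytokinesis, 23 were lower and 0 higher in limma, with 31 lower and 2 higher at an unadjusted p under 0.05. The largest decreases were in *Arhgap11a* (-1.73), *Mastl* (-1.56), the kinase that keeps phosphatase PP2A off in mitosis, *Cep55* (-1.30), a protein of the midbody, and *Sass6* (-1.29), which builds new centrioles. Of 20 condensin and cohesin genes, 9 were lower and 0 higher, with 15 and 1 at an unadjusted p under 0.05. These 9 were led by the condensin subunits *Ncapg* (-1.63), *Smc2* (-1.59), *Smc4* (-1.41) and *Ncaph* (-0.96). Of 17 genes of the anaphase-promoting complex, 1 was lower and 1 higher, with a median of -0.03. The lower one was its inhibitor *Fbxo5* (-1.03), also named Emi1, and the higher one the subunit *Anapc13* (0.76). The share called lower in each list is plotted beside that of all genes.

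**Figure D3:**
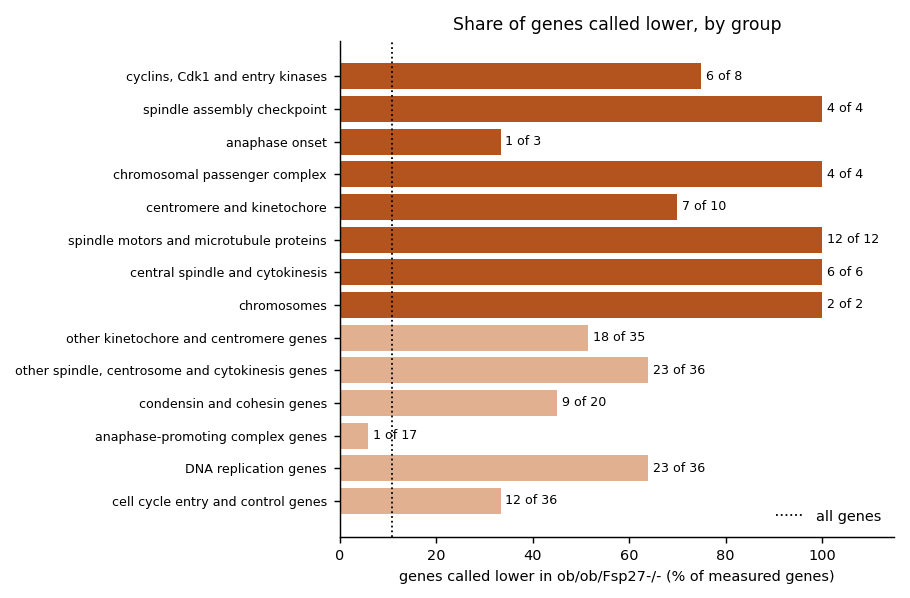
Percent of measured genes called lower in *ob/ob/Fsp27*-/- for the roles of the 49 genes, for other lists of mitosis and the cell cycle, and for all genes (dotted line, 10.8%), with the number called of the number measured beside each bar. Spindle motors stand at 12 of 12 and the anaphase-promoting complex at 1 of 17.

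Among 36 genes of cell cycle entry and control, calls went both ways, with 12 lower and 4 higher. Lower were the G1 cyclin *Ccnd1* (-1.63), the Cdk1 inhibitory kinase *Wee1* (-1.53), *Myc* (-1.43) and the pocket protein *Rbl1* (-1.36). Higher were the Cdk inhibitor *Cdkn2c* (1.28) and the G1 cyclins *Ccnd2* (1.01), *Ccne1* (0.83) and *Ccnd3* (0.80). The cyclins of G1 therefore changed in both directions, whereas the measured cyclins of the mitosis list, *Ccna2* and *Ccnb2*, were both lower. *Foxm1*, a transcription factor of mitotic genes named here for that role and outside the rule for naming, read 6.41, 6.51 and 6.46 against 5.27, 5.28 and 5.27, a change of -1.19 (adjusted p = 8.06e-05 in limma). Of 36 DNA replication genes, 23 were lower and 0 higher (31 and 2 at an unadjusted p under 0.05), led by *Pcna* (-2.23), the sliding clamp of the replication fork.

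Markers of some cells that GWAT can hold changed as well, in both directions, and their part in the decrease was not tested. Over all genes, 10.8% were called lower and 9.58% higher. Of 17 macrophage markers, 14 were called lower and 0 higher (14 and 0 at an unadjusted p under 0.05), and the mean of the list was 9.86, 9.76 and 9.63 on the *ob/ob* arrays and 7.63, 7.74 and 7.76 on the *ob/ob/Fsp27*-/- arrays. *Adgre1*, a macrophage surface receptor, changed by -3.21, *Cd68* by -2.68 and *Csf1r* by -1.74. *Cd163* (-0.23), *Cx3cr1* (-0.12) and *Marco* (-0.019), named after their values were seen, were not called. Of 7 mast cell markers 4 were lower, with list means of 7.88, 7.64 and 6.90 against 6.29, 5.98 and 6.39. *Cpa3* changed by -2.98 and *Mcpt4* by -2.11, while *Kit* (-0.39) was not called. Of 8 adipocyte markers 5 were higher, among them *Adipoq* (1.20), *Plin1* (0.86) and *Lipe* (0.85). *Lep* (-0.22), *Pparg* (0.33) and *Fabp4* (0.32), named after their values were seen, were not called. The adipocyte list means were 10.66, 11.13 and 11.39 against 11.81, 11.88 and 11.90. Of 8 endothelial markers 5 were higher, with *Kdr* at 1.40 and *Cdh5* at 0.64, while *Pecam1* (0.41) was not called. On the *ob/ob* arrays the macrophage, mast cell and T cell means were lowest on array 3. That array was also the lowest for most of the mitosis genes. The adipocyte and endothelial means, among others, were highest there. The macrophage, mast cell and T cell means were highest on array 1 and the mean of the mitosis genes on array 2. What these array orders reflect was not tested.

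**Figure D4:**
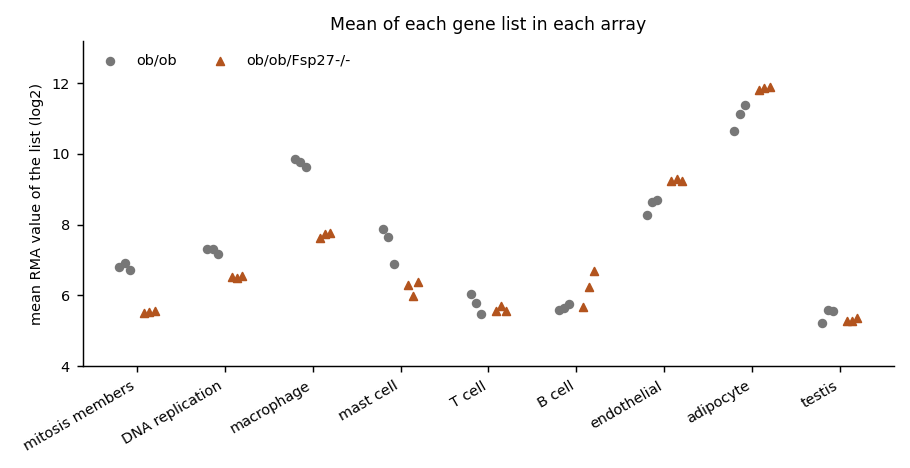
Mean log2 expression of the 49 mitosis genes, the DNA replication genes and selected lists of cell type markers on each of the 6 arrays, with points coloured by genotype. The mitosis genes lie at 6.72 to 6.91 in *ob/ob* and at 5.50 to 5.57 in *ob/ob/Fsp27*-/-, and the macrophage list lies at 9.63 to 9.86 and 7.63 to 7.76.

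Of 7 stromal markers 3 were called lower (42.9%, beside 10.8% of all genes), with list means of 9.80, 9.84 and 9.80 on the *ob/ob* arrays and 9.46, 9.15 and 9.06 on the *ob/ob/Fsp27*-/- arrays. The 3 called were *Pdgfra* (-0.52) and, named after their values were seen, *Fn1* (-1.59, adjusted p = 0.000505 in limma) and *Lum* (-1.56, adjusted p = 0.000339), which encode matrix proteins. Of 7 dendritic cell markers 2 were lower (28.6%), *Xcr1* (-0.56) and *Clec9a* (-0.68, likewise named after its value was seen). The 6 B cell markers had a median of 0.60, with 3 higher and 1 lower at an unadjusted p under 0.05. The 1 called in limma was *Cd22* (-0.56, named after its value was seen), so 16.7% were called lower, beside 10.8% of all genes. *Ms4a1* (1.02) and *Cd79a* (1.29) were not called. Of 7 neutrophil markers 1, *S100a8* (0.83), was called higher, beside 9.58% of all genes. The part of these cells in the decrease of the mitosis genes was not tested either. In limma, 0 of 8 T cell, 6 NK cell, 7 mesothelial and 5 epididymis markers were called, and at an unadjusted p under 0.05 only 2 T cell markers passed, 1 in each direction. Testis tissue lies next to GWAT and holds many dividing cells. Of 8 testis markers 1, *Prm1* (-0.93), was called lower (12.5%, near the 10.8% of all genes). The testis list means were 5.24, 5.60 and 5.56 on the *ob/ob* arrays and 5.27, 5.27 and 5.36 on the *ob/ob/Fsp27*-/- arrays. The deleted gene did not separate the genotypes. *Cidec* read 11.49, 11.78 and 11.98 against 11.34, 11.51 and 11.53, a change of -0.29 (adjusted p = 0.157 in limma). Whether its probes lie in the deleted part is not known here, so the arrays carry the genotypes that the labels give. In mice of these genotypes the paper blotted Fsp27 protein in GWAT. It also reported smaller adipocytes with multilocular lipid droplets in *ob/ob/Fsp27*-/- mice.

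The promoter letters shown for *Top2a*, *Ccnb2* and *Mki67* were counted in all 41 genes of the list that had a RefSeq window (250 bases before to 50 after the start), *Ccnb1* included. The other 9 genes, *Ccna2* among them, had no window and were not searched. The 41 genes had 45 windows, beside 21262 windows of 17491 protein-coding genes. On either strand, CCAAT was in 34 of 45 windows (75.6%, beside 38.2% of all windows), and 23 windows (51.1%, beside 12.8%) held it at least 2 times. TTTGAA was in 32 windows (71.1%, beside 16%) and TTTAAA, the other common form of the CHR, in 10 (22.2%, beside 11.9%). An E2F-like pattern, TTTNNCGC, was in 4 windows (8.89%, beside 6.24%). CCAAT together with TTTGAA or TTTAAA was found in 29 windows (64.4%, beside 9.95%), which belong to 27 genes. In the 100 bases just before the start, CCAAT was in 30 windows (66.7%, beside 20.8%) and a CHR form in 13 (28.9%, beside 8.46%). Only 2 pairs of matches overlapped.

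**Figure D5:**
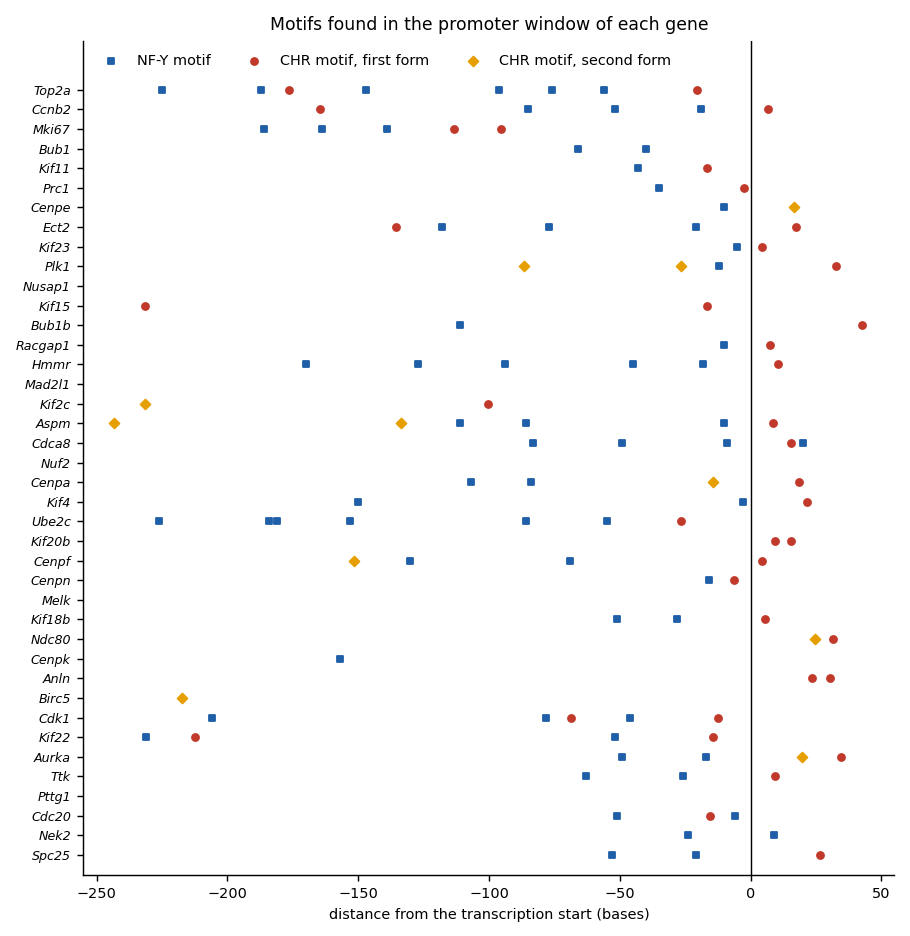
Position of motif matches relative to the transcription start (bases, 0 at the start) in the promoter windows of the measured genes with one (*Ccnb1* is left out), 1 row for each gene and 1 window for genes with several. Over all 45 windows, with that of *Ccnb1* and the further windows that are not plotted, 30 hold an NF-Y motif in the 100 bases before the start.

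A match is a description of letters and not a site of binding. Both motifs stood in the windows of 24 of the 36 called genes that had one and of 2 of the 4 genes that were measured with a window and not called. Those 2 were *Cdc20* and *Spc25*, while *Nek2* held CCAAT alone and *Pttg1* held neither. Of the genes with a window and a decrease of more than 2-fold, *Bub1* held CCAAT without a CHR form. *Kif15*, *Kif2c* and *Kif20b* held a CHR form without CCAAT, and *Nusap1*, *Mad2l1* and *Nuf2* held none of the letters searched. Both motifs were thus present and absent among called and uncalled genes alike.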

How the data were processed

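GWAT RNA was amplified, labelled and hybridized to 6 GeneChip Mouse Gene 1.0 ST arrays. For the deposited table the authors computed log2 values by Robust Multi-array Average (background adjustment, quantile normalization and a summary for each transcript cluster). Which RMA and limma versions they ran is not given in the sources used here. Their filter on detection above background needs single-probe values and was not repeated.

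Each array was 1 replicate, numbered within its genotype in the order of deposit, and p-values measure the spread between pooled samples and not between single mice. Of 34760 probesets, 21640 carry 1 symbol by the platform annotation, 1321 several and 11799 none. Those with at least 1 symbol (22961) were fitted in R 4.3.3 with limma 3.58.1 (lmFit, eBayes, no covariates), with Benjamini-Hochberg adjustment over all of them. Genes were called where the log2 fold change reached 0.5 in size with an adjusted p under 0.05. Values were counted per gene over one-symbol probesets. The steps were tested on simulated data. A planned search for protein patterns was not run, since no protein sequences were used here. Arrays give no read depth, so that their number, 3 per genotype, limits the precision.

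The members and lists were chosen with earlier results of these data known. All members are named, as are up to 4 called genes per list of other mitotic or cell cycle control genes and direction, and up to 3 leading markers of a cell type. Python 3.11.15, pandas 2.3.3, numpy 2.4.6 and matplotlib 3.10.9 were used for counts, promoter letters and figures. Alternatives were filters on low values, all probesets, array centring, cyclic loess, other variance models, other fold thresholds, probeset means and leaving out each array.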

Additional observations from a re-analysis of the deposited data

How the results depend on the processing

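The 49 measured genes and the 108 other mitotic genes were recomputed under 12 alternatives and with each array left out. None of the 42 called mitosis genes changed direction in any of these fits that held it. Leaving out the dimmer probesets left fewer genes to test. Above the 30th percentile of all values the median of the mitosis genes was -1.36 over 43 genes, and above the median of all values it was -1.50 over 24 genes, with 21 of the 24 called lower and 21 of 66 other mitotic genes called lower. Centring on 11 housekeeping genes moved the median of all tested probesets from 0.06 to 0.19. Against that shift the mitosis genes had a median of -1.06, and 38 of 108 other mitotic genes were called lower and 6 higher. Before centring, 6 of the 11 housekeeping genes were lower and 1 higher at an unadjusted p under 0.05 in limma. With no fold threshold 6 other mitotic genes were called higher and 44 of the 49 lower, *Cdc25c* and *Cdc20* being added. At a threshold of 1 on the log2 scale 18 other mitotic genes were lower and 0 higher, and 30 of the 49 were lower. Without 1 array, the number lower was 42 to 43, the median -1.29 to -1.14, and the other mitotic genes 47 to 55 lower and 2 to 3 higher. *Cdc25c* joined the calls without *ob/ob/Fsp27*-/- array 2 (-0.51, adjusted p = 0.0162 from limma). The sign of *Spc25* and *Ska1*, which were not called, changed under a scaling or without 1 array. Signal over background limits the reading of dim genes such as *Ska1* and *Kif4*. No paired analysis was possible because the array labels share no replicate numbers between genotypes.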
